A study of Mus musculus with 21 samples.

Results

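The fatty acid oxidation programme of the nuclear receptor PPARα was followed in germ-free mouse colon through 8 genes: the receptor *Ppara* itself and the targets *Cpt1a*, *Cpt2*, *Acadm*, *Pdk4*, *Angptl4*, *Cyp4a10* and *Fabp1*. Every array feature that was not a control and carried 1 of these symbols, or a RefSeq transcript of 1 of these genes, was taken, which gave 12 of 56605 probes (27499 named genes) on the day 0 array and 14 of 55681 probes (24191 named genes) on the day 7 array. The probe with the highest mean signal over the arrays of a day stands for its gene. All mice were germ-free (GF) C57BL/6J mice, either wild type (WT) or Card9-/-, lacking the adaptor protein CARD9 of the C-type lectin receptors, and RNA came from total colon tissue. At day 0, before colitis was induced, there were 7 arrays labelled GF Card9-/- and 6 labelled GF WT. At day 7, after 2% dextran sulfate sodium (DSS, a detergent-like polymer that injures the colon epithelium) in the drinking water, there were 4 arrays of each label. The titles of GF Card9-/- replicates 2 and 2.1 share a number, and whether they come from 1 mouse is not given in the sources used here. Their values differed with an SD of 0.85 over probes on the log2 scale, within the 0.73 to 0.91 of the other pairs of that label, so they were counted as 2, and n = 4 and the p-values of day 7 depend on this. According to the study's methods germ-free mice received yeast-free feed. Among germ-free mice the methods state sex and age only for those that were colonised. The age of the uncolonised mice of these arrays is not given in the sources used here. The days used different array designs, so genotype labels were compared within a day, and across days only the sizes of these label differences were compared. No source states that the arrays of a label came from separate mice, so p-values measure the spread between these arrays, which may be technical.

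PPARα is activated by fatty acids and their derivatives and binds DNA as a partner of the retinoid X receptor. Its target genes carry fatty acids into mitochondria and oxidise them, shift fuel use from glucose to fat, and are most active in liver, heart and other tissues that burn fat, above all in fasting. In the gut the programme is strongest in absorptive epithelium of the small intestine and is also present in colon, where epithelial cells oxidise short-chain fatty acids made by bacteria, a source that germ-free mice lack.

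The receptor with its partner recognises the hexamer AGGTCA as a direct repeat with 1 base between. The 250 bases before the gene start were available for 6 of the 8 members (RefSeq, GRCm38.p6), *Angptl4* and *Cyp4a10* being the others. They were searched on both strands. The hexamer occurred in the windows of 3 of the 6 members and in 14% of 32851 windows of all genes. A direct repeat with at most 1 mismatch lay in 0.484% of all windows, and among the members in that of *Fabp1* alone. It stood 67 to 55 bases before the start of *Fabp1*, on the minus strand, where it read AGGCCATAGGTCA. The best match of *Acadm*, 249 to 237 bases before its start and also on the strand opposite to the gene, had 3 mismatches, a level reached by 21.3% of all windows. The remaining 4 windows had 4 or 5 mismatches. Both windows are given 5′ to 3′ on the strand of the gene, to show the closest and the next closest match among the members, with the matched bases in capitals. A match in letters is not evidence of binding.
Fabp1, chr6:71199629-71199878, plus strand: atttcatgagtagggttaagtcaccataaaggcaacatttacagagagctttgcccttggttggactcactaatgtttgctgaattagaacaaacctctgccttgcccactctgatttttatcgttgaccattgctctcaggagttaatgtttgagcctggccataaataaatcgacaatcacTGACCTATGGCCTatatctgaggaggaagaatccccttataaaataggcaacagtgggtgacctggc
Acadm, chr3:153944644-153944893, minus strand: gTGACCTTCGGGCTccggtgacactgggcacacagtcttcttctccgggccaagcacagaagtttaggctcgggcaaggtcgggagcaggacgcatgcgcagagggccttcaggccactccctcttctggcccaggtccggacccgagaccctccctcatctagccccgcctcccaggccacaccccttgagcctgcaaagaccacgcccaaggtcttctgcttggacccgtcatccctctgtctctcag

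Several arrays bear on how the labels can be read. *Card9* was brighter, not dimmer, in the arrays labelled GF Card9-/-: at day 0 it was well above background on 7 of 7 of them and on 0 of 6 labelled GF WT, at least 21.5-fold higher on average, and at day 7 on 4 of 4 against 1 of 4, the exception being GF WT replicate 1 with a log2 signal of 7.85. On both *Card9* probes of the day 0 array the arrays labelled GF WT were low, with means of 2.32 and 3.31 against 8.90 and 7.11. The reason was not tested, so every difference below is that between arrays as labelled and would change sign if the labels were exchanged. Colonocyte markers were well above background on all arrays, 10 of 10 on both days. Pancreatic acinar genes stood far above the other arrays in GF Card9-/- replicate 7 at day 0 and in GF Card9-/- replicates 2.1 and 6 at day 7. In bulk tissue, fewer cells of a type and less RNA per cell cannot be told apart. Between 54.5% and 64.9% of spots were well above background on the day 0 arrays and between 42.2% and 57.1% on the day 7 arrays.

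The first comparison asked whether the genotype labels differed in the PPARα programme before colitis. None of the 8 members passed the test at day 0. All 8 were tested by limma over 47400 probes, of which 12 were called at an adjusted p under 0.05 (0.0253%), and no member reached even an unadjusted p under 0.05 (2769 probes did). The ranges of the labels overlapped for all 8 members, while 0.458% of all tested probes had labels that did not overlap. The median member difference, Card9-/- label minus WT label, was −0.049 on the log2 scale beside 0.015 over all probes, with 2 members higher and 6 lower, among the latter *Cyp4a10*, whose probes disagree. Adjusted p ranged from 0.912 to 0.995. The median turned to 0.070 without GF WT replicate 6 and to 0.00098 without GF WT replicate 5, and stayed below 0 when any other array was left out.

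*Ppara*, the receptor, gave log2 signals from 11.55 to 11.82 (median 11.67) in the 7 arrays labelled GF Card9-/-. In the 6 arrays labelled GF WT it ran from 11.47 to 13.26 (median 11.77). Apart from the highest WT array, GF WT replicate 6, both labels lay within a narrow common band. The probe lies at chr15:85632110-85632169 (NCBI37). The difference was −0.29 ± 0.24 (SE, with a 95% interval from −0.82 to 0.24), and it was −0.032 ± 0.097 without that array. A further *Ppara* probe gave −0.26 ± 0.26.

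*Cpt1a* and *Cpt2* encode the carnitine palmitoyltransferases of the outer and inner mitochondrial membrane, which bring long-chain fatty acids to the site of oxidation. *Cpt1a* ranged from 13.21 to 13.42 (median 13.39) in the arrays labelled GF Card9-/- and from 13.16 to 13.86 (median 13.31) in those labelled GF WT. *Cpt2* ranged from 13.61 to 13.90 (median 13.75) and from 13.54 to 14.16 (median 13.72), respectively. Both were among the steadiest members. Their differences were −0.086 ± 0.11 and −0.0063 ± 0.096 (SE). *Acadm*, the medium-chain acyl-CoA dehydrogenase that opens each round of β-oxidation for medium-length chains, ran from 14.13 to 14.28 (median 14.22) in the arrays labelled GF Card9-/- and from 14.04 to 14.56 (median 14.12) in those labelled GF WT. Its difference was −0.011 ± 0.083, with a 95% interval of −0.19 to 0.17. For these 3 enzymes the intervals left little room, the widest, that of *Cpt1a*, running from −0.33 to 0.16.

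The fuel switch genes varied far more between arrays. *Pdk4*, the kinase that shuts off pyruvate dehydrogenase and so spares glucose, ranged from 5.57 to 8.09 (median 7.67) in the arrays labelled GF Card9-/- and from 7.02 to 9.42 (median 7.33) in those labelled GF WT. *Angptl4*, a secreted inhibitor of lipoprotein lipase, ranged from 8.06 to 11.21 (median 9.52) and from 8.0 to 11.32 (median 9.19), respectively. A single low array, GF Card9-/- replicate 5, and a single high one, GF WT replicate 6, marked the ends for *Pdk4*. The differences were −0.28 ± 0.46 for *Pdk4* and 0.17 ± 0.58 for *Angptl4* (SE), with 95% intervals from −1.27 to 0.72 and from −1.10 to 1.44. That of *Angptl4* turned negative without GF Card9-/- replicate 6 (−0.12), GF WT replicate 1 (−0.088) or GF WT replicate 3 (−0.033), and that of *Pdk4* turned positive without GF WT replicate 6 (0.070) or GF Card9-/- replicate 5 (0.026).

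*Cyp4a10*, which starts the ω-oxidation of fatty acids, was close to background. Its brightest probe, which also matches *Cyp4a32*, was well above background on 0 of 7 arrays labelled GF Card9-/- and on 1 of 6 labelled GF WT, again replicate 6. The values ran from 2.48 to 4.40 (median 3.45) and from 2.44 to 9.63 (median 3.73). *Fabp1*, the liver-type fatty acid binding protein that shuttles fatty acids inside cells, ran from 5.32 to 7.68 (median 6.29) in the arrays labelled GF Card9-/- and from 4.85 to 7.60 (median 5.62) in those labelled GF WT. The highest *Fabp1* values were those of GF Card9-/- replicate 3 and GF WT replicate 6. The differences were −0.93 ± 0.99 for *Cyp4a10* and 0.37 ± 0.47 for *Fabp1* (SE). A further *Cyp4a10* probe went the other way, at 0.80 ± 0.56, so no direction can be given for this gene at day 0. The *Fabp1* difference was 0.13 without GF Card9-/- replicate 3 and 0.15 without GF WT replicate 2. For *Fabp1* the two-sided exact permutation test over the 13 arrays gave p = 0.464.

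**Figure D1:**
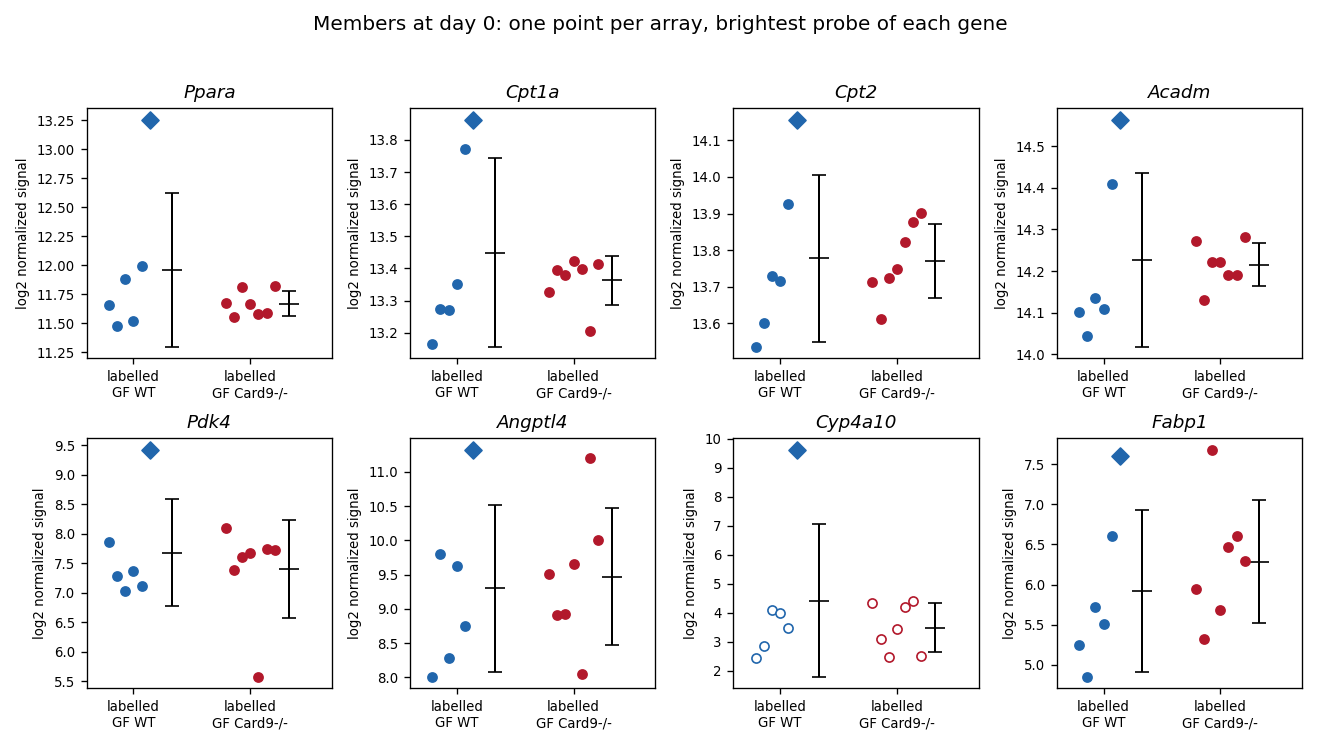
Log2 normalized signal of the brightest probe of each member on the 13 day 0 arrays (blue, labelled GF WT, n = 6; red, labelled GF Card9-/-, n = 7), with open symbols for arrays where the probe was not well above background and bars for mean ± SD. GF WT replicate 6, the diamond, is the highest array for every gene but *Fabp1*, where *Cyp4a10* is shown by a probe that leads only through this array, and the remaining arrays of both labels overlap.

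The array labelled GF WT replicate 6 stood apart at day 0 for most members, and it was singled out after its values were seen. It was the highest of 13 arrays for 6 of the 7 members other than *Cyp4a10* and second for *Fabp1*, whereas over all tested probes it was the highest for 14.3% and the lowest for 13.4%. Against the mean of the other 5 arrays labelled GF WT, *Ppara* was 2.94-fold higher. *Angptl4* was 5.39-fold, *Pdk4* 4.28-fold and *Fabp1* 4.04-fold higher. The mitochondrial enzymes were displaced less, with *Cpt1a* at 1.41-fold, *Cpt2* at 1.37-fold and *Acadm* at 1.32-fold. The 2 *Ppara* probes gave nearly the same excess over the other 12 arrays, 1.57 and 1.6 on the log2 scale. On the dimmer *Cpt2* probe the array was second, at 8.59 against 8.78 in GF WT replicate 5. *Cyp4a10* is left out of that count because its probe leads only through this array, where it gave 9.63 against a mean of 3.44 in the other 12. Without the array another *Cyp4a10* probe has the higher mean, 3.81, and on that probe the array is the lowest of the 13 at 2.57, so the probes of this gene disagree. Of the 8 members, 1, *Cyp4a10*, had its leading probe set by this array.

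In the same array genes around the members stood high too. It was the highest of 13 for 8 of 12 peroxisomal oxidation genes, for 11 of 18 mitochondrial oxidation genes, for 5 of 11 genes of fatty acid uptake and binding and for 2 of 4 ketogenesis genes. The count was 5 of 17 for other known PPAR targets, 1 of 5 for ω-oxidation, and 4 of 14 for receptors and coregulators, of which 3 were at their lowest. *Vnn1*, a pantetheinase under PPARα control, gave 9.01 against a median of 5.48 in the other arrays. Small intestine enterocyte markers were at their highest in that array for 7 of 10 tested genes, with a mean centred score of 1.74 against −0.70 to 0.35 in the other arrays and a summed signal of 587200 against 329700 to 490700. The brush border disaccharidase *Sis* was at 12.72 against a median of 6.42, and *Apoa1* at 9.57 against 4.82. Of 10 colonocyte markers 4 were at their highest and 4 at their lowest in that array. Among them, the water channel *Aqp8* was at 9.56 against 15.47 to 17.12 in the others, while the carbonic anhydrase *Car1* was at 17.94 against 14.45 to 15.65. The adipocyte score of that array was 1.6, second only to GF Card9-/- replicate 6, and its smooth muscle score was −1.27. Of 8 cell cycle genes 5 were at their highest in it. The part of these genes in the members' values was not tested.

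**Figure D2:**
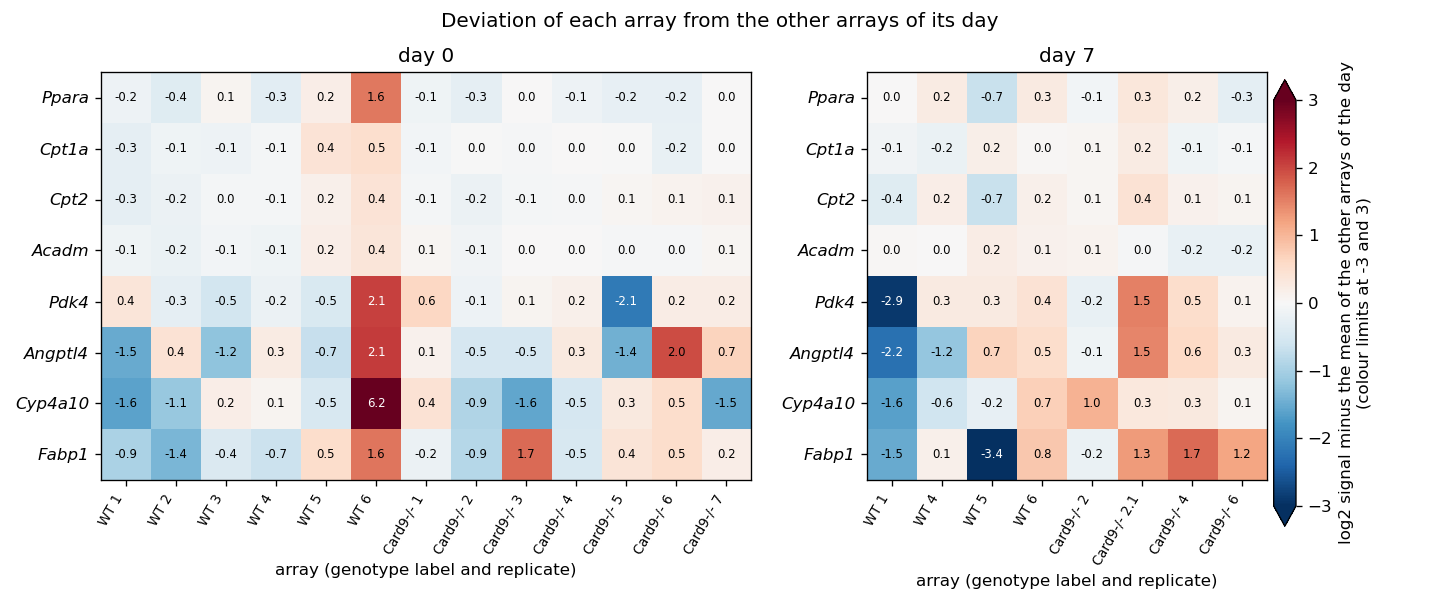
Deviation of each array from the mean of the other arrays of its day, in log2 units, for the 8 members at day 0 (13 arrays) and day 7 (8 arrays), with colours limited to −3 and 3. The column of GF WT replicate 6 at day 0 is positive for all 8 genes, for *Cyp4a10* on a probe that leads only through this array, and at day 7 the largest deviations are the low *Pdk4* value of GF WT replicate 1 and the low *Fabp1* value of GF WT replicate 5.

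Without that array the day 0 differences of 6 members were above 0, among them *Cyp4a10* on the probe that had led only through it. *Ppara* and *Cpt1a* stayed marginally below 0, at −0.032 ± 0.097 and −0.0030 ± 0.095. The others included 0.070 ± 0.38 for *Pdk4*, 0.58 ± 0.51 for *Angptl4*, 0.056 ± 0.064 for *Acadm* and 0.70 ± 0.40 for *Fabp1* (SE). No member was called, adjusted p ranging from 0.709 to 0.993. On the slide that held it, slide 4, the *Pdk4* difference was −2.77 and that of *Ppara* −1.67. On slides 1, 2 and 3 the *Ppara* difference was 0.17, −0.05 and −0.03. *Fabp1* was 1.05, 0.78 and 0.20 higher in the Card9-/- label on slides 1, 2 and 3 and lower by −1.06 on slide 4. Between the scan sessions, *Fabp1* differed by 0.87 in the first and −0.10 in the second, and *Angptl4* by 0.43 and −0.14.

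The second comparison asked the same after 7 days of DSS. Again none of the 8 members passed the test, and 7 of the 8 leading probes had a higher mean in the arrays labelled GF Card9-/-, that of *Cyp4a10* against its further probes. By limma 0 of 44624 tested probes were called (0%), 1511 had an unadjusted p under 0.05, and none of these was a member. No member had labels that did not overlap, against 2.12% of all tested probes. The median member difference was 0.53 beside 0.0013 over all probes, and adjusted p ranged from 0.913 to 0.986. The median was 0.19 without GF WT replicate 1, the 1 array labelled GF WT on which *Card9* was well above background. It was 0.21 with another background correction and 0.18 with dim values raised to the lowest measurable level. With slide as a block it was 0.13, a fit that rests on slides 4 and 6, which alone held both labels. Its sign was not kept under every alternative run.

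*Fabp1* had the largest fitted difference, one that depended on values near background. Its log2 signals were 5.27, 6.56, 6.93 and 6.46 in GF Card9-/- replicates 2, 2.1, 4 and 6 and 4.10, 5.56, 2.44 and 6.14 in GF WT replicates 1, 4, 5 and 6. All 4 arrays of the Card9-/- label were well above background, but only 2 of 4 labelled GF WT. The lowest Card9-/- array lay below 2 of the WT arrays, so the labels overlapped. The difference was 1.74 ± 0.82 (SE; 95% interval −0.16 to 3.65; adjusted p = 0.913 by limma), and the two-sided exact permutation test gave p = 0.0857, where 4 arrays against 4 cannot go below 0.0286. With dim values raised to the lowest measurable level the difference was 0.65 ± 0.38 and with normexp background correction 0.63 ± 0.25. It was 1.03 ± 0.59 without GF WT replicate 5. Only slides 4 and 6 held both labels, and there it was −0.87 and 0.99. The fit with slide as a block, 0.059 ± 0.67, rests on these slides alone, so GF WT replicates 1 and 5 do not enter that difference.

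*Angptl4* gave 10.10, 11.49, 10.73 and 10.45 in the arrays labelled GF Card9-/- against 8.24, 9.20, 10.79 and 10.68 in those labelled GF WT. *Pdk4* gave 7.77, 9.28, 8.43 and 8.05 against 5.44, 8.19, 8.19 and 8.34. For both genes GF WT replicate 1 was the lowest array and GF Card9-/- replicate 2.1 the highest, and for *Pdk4* replicate 1 was the only array not well above background. The differences were 0.96 ± 0.62 for *Angptl4* and 0.84 ± 0.70 for *Pdk4* (SE). Without GF WT replicate 1 they were 0.47 ± 0.50 and 0.14 ± 0.36. Within slides they changed sign, *Angptl4* being −0.57 on slide 4 and 2.29 on slide 6, and *Pdk4* −0.57 and 1.09.

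*Ppara* itself gave 10.84, 11.22, 11.08 and 10.66 in the arrays labelled GF Card9-/- and 10.92, 11.12, 10.34 and 11.16 in those labelled GF WT. The ranges overlapped, with GF WT replicate 5 below every array of the Card9-/- label. Its difference was 0.064 ± 0.22 (SE, with a 95% interval from −0.45 to 0.58), and 2 further probes gave 0.25 ± 0.31 and 0.30 ± 0.19.

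Of the mitochondrial enzymes, *Cpt1a* gave 13.05, 13.21, 12.90 and 12.94 against 12.90, 12.82, 13.16 and 13.03, a difference of 0.049 ± 0.12. *Cpt2* gave 13.11, 13.43, 13.16 and 13.12 against 12.73, 13.23, 12.47 and 13.20, a difference of 0.30 ± 0.20. *Acadm* was the only member with a lower mean in the Card9-/- label, with 13.75, 13.64, 13.47 and 13.47 against 13.70, 13.68, 13.87 and 13.79. The *Acadm* difference was −0.18 ± 0.11 (SE) with a two-sided exact permutation p of 0.114, and it lay between −0.23 and −0.14 when each array was left out in turn. Within slides 4 and 6 it was −0.038 on both. Of *Cyp4a10*, 1 array of each label was well above background, and values were 5.09, 4.45, 4.43 and 4.24 against 2.75, 3.65, 3.96 and 4.79. Its brightest probe differed by 0.77 ± 0.42 and the further ones by −0.78 ± 1.14 and −0.38 ± 0.21, so no direction can be given for this gene.

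**Figure D3:**
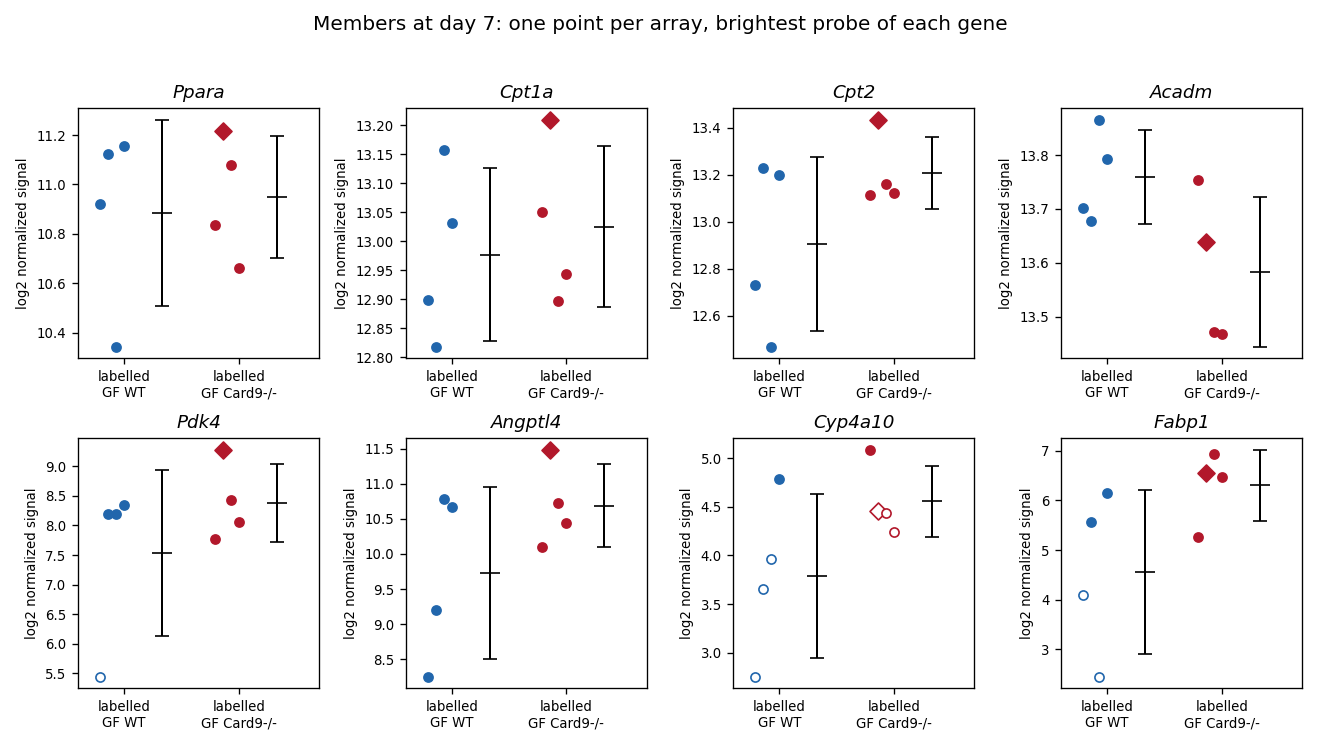
Log2 normalized signal of the brightest probe of each member on the 8 day 7 arrays (blue, labelled GF WT, n = 4; red, labelled GF Card9-/-, n = 4), with open symbols where the probe was not well above background and bars for mean ± SD. GF Card9-/- replicate 2.1, the diamond, is the highest array for 5 of the 8 genes, and the labels overlap for every gene.

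The array labelled GF Card9-/- replicate 2.1 was the highest of the 8 for 5 of 8 members, against 14.7% of all tested probes. GF WT replicates 1 and 5 were each the lowest for 3 members, against 12.8% and 20.4% of all probes. The adipocyte score was 1.51 in replicate 2.1 and −0.89 and −1.62 in GF WT replicates 1 and 5, and the small intestine score was 1.0 in replicate 2.1 and −0.66 and −1.5 in the same WT arrays. Smooth muscle scores ran from −1.49 to 0.62 in the arrays labelled GF Card9-/- and from −1.09 to 1.23 in those labelled GF WT. The share of these markers in the members' values was not tested. Without replicate 2.1 the median member difference was 0.39.

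**Figure D4:**
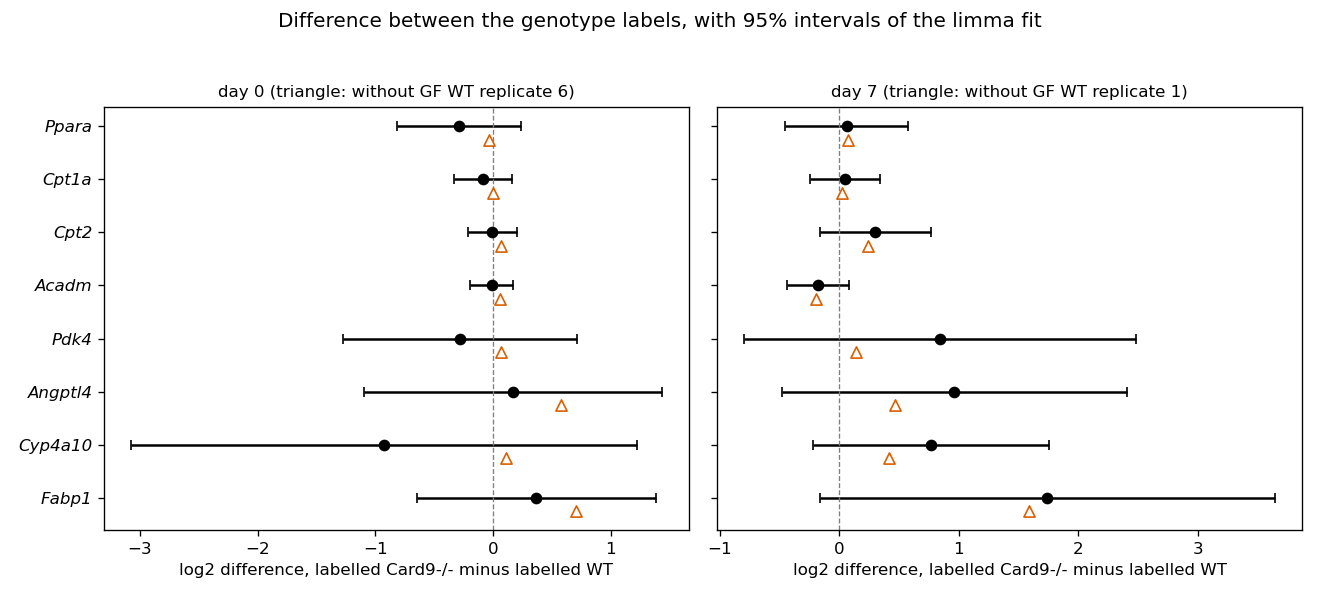
Log2 difference, Card9-/- label minus WT label, of each member at day 0 and day 7 with its 95% confidence interval from limma, and as triangles the value without GF WT replicate 6 (day 0) or GF WT replicate 1 (day 7). All intervals include 0, and they are narrowest for *Cpt1a*, *Cpt2* and *Acadm* at day 0.

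A limma fit of the 23624 probes common to both designs asked whether the label difference itself changed from day to day. It called 0 of them (0%), with 1688 at an unadjusted p under 0.05. The difference at day 7 minus that at day 0 was 1.38 ± 0.89 for *Fabp1*, 1.12 ± 0.82 for *Pdk4*, 0.79 ± 0.91 for *Angptl4* and 0.36 ± 0.36 for *Ppara* (SE). For *Cpt1a* it was 0.13 ± 0.17 and for a *Cpt2* probe on both designs 0.12 ± 0.37. Adjusted p ranged from 0.790 to 0.970. For *Cyp4a10* the shared probe, not its brightest on either day, gave −1.58 ± 1.17. *Acadm* had no probe on both designs.

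The wider pathway was read in 7 lists of receptors, enzymes and carriers. No gene of any list was called on either day by limma. At day 0 the median differences ran from −0.12 for fatty acid uptake and binding (4 of 11 genes higher) to 0.033 for ketogenesis (3 of 4 higher), and the 18 mitochondrial oxidation genes had a median of −0.038 with 5 higher. At day 7 they ran from −0.035 for ketogenesis (2 of 4 higher) to 0.37 for uptake and binding (7 of 11 higher). The 12 peroxisomal genes then had a median of 0.15 with 8 higher, and the mitochondrial genes 0.068 with 11 of 18 higher.

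Among the receptors and coregulators at day 0, *Lpin1*, a coactivator of PPARα that also makes diacylglycerol, differed by −0.53 ± 0.20 and *Creb3l3*, a transcription factor of lipid handling, by −0.40 ± 0.30. At day 7 the same genes differed by 0.68 ± 0.57 and 1.49 ± 0.99. Of the genes tested in these lists, the labels did not overlap for 1 of 82 at day 0 (1.22%, beside 0.458% of all tested probes) and for 3 of 84 at day 7 (3.57%, beside 2.12%). The retinoid X receptor *Rxra*, PPARα's partner, was the day 0 gene, with means of 14.68 ± 0.055 and 15.05 ± 0.21 (SD; n = 7 and 6) and a limma adjusted p of 0.249. The day 7 genes included the binding proteins *Fabp5* at 0.57 and *Fabp6* at −0.60, with a limma adjusted p of 0.913. These 3 genes were singled out after their values were seen. *Cd36*, the fatty acid translocase, differed by −0.51 ± 0.69 at day 0. *Slc27a2*, a very long-chain acyl-CoA synthetase, and *Fabp2*, the intestinal binding protein, differed by 1.27 ± 0.68 and 1.08 ± 0.99 at day 7.

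The lipid droplet genes *Cidec* and *Plin5* had the largest day 7 differences among the other known targets, 1.67 ± 0.94 and 1.52 ± 0.93. *Cidec* is also an adipocyte marker, and at day 7 the adipocyte list had a median difference of 1.23 with 9 of 11 genes higher and a summed signal of 42880 to 151300 in the arrays labelled GF Card9-/- against 26660 to 95310 in those labelled GF WT. The ω-oxidation genes *Cyp4a14*, *Cyp4a12a* and *Cyp4a12b* never rose well above background, on either day.

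The levels of some members followed the marker scores of the arrays, among 160 pairs of a member with a marker list over both days. No member belongs to a marker list. At day 0 *Ppara* tracked the small intestine enterocyte score with r = 0.95 and rho = 0.90 over 13 arrays (permutation p = 5e-05 and 0.00014; adjusted 0.0072 and 0.0224). The coefficient was 0.82 without the 2 arrays farthest on the score, and 0.92 and 0.98 within the scan sessions. *Acadm* tracked the same score with r = 0.91 and rho = 0.85 (permutation p = 9e-05 and 0.00052; adjusted 0.0072 and 0.0277), with r = 0.72 without the 2 arrays. The relation of *Ppara* therefore did not rest on GF WT replicate 6 alone.

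*Angptl4* followed the adipocyte score at day 0 with r = 0.74 and rho = 0.80 (permutation p = 0.00107 and 0.00141; adjusted 0.0171 and 0.0564), and r was 0.84 without the 2 farthest arrays. GF Card9-/- replicate 5 had the lowest adipocyte score, −4.46, with 6 of 11 markers well above background, and GF Card9-/- replicate 6 the highest, 2.20. *Pdk4* followed the brown adipocyte score with r = 0.77 and rho = 0.86 (permutation p = 0.00039 and 0.00031; adjusted 0.0171 and 0.0248), with r = 0.70 without the 2 arrays. That score rested on *Cidea* and *Cox8b*, since the defining genes *Ucp1* and *Elovl3* were never well above background.

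At day 7, with 8 arrays, *Fabp1* followed the small intestine score with r = 0.95 and rho = 0.88 (exact permutation p = 0.000818 and 0.00724; adjusted 0.0171 and 0.131) and the adipocyte score with r = 0.91 and rho = 0.88 (exact permutation p = 0.000694 and 0.00724; adjusted 0.0171 and 0.131). *Cpt2* followed the small intestine score with r = 0.97 and rho = 0.86 (exact permutation p = 0.000769 and 0.0107; adjusted 0.0171 and 0.137). *Fabp1* was not well above background on 2 of the 8 arrays, GF WT replicates 1 and 5, which also had low scores, so these coefficients rest in part on values near background. Without the 2 farthest arrays r was 0.70 and 0.93 for *Fabp1* and 0.85 for *Cpt2*. *Ppara* and the small intestine score gave r = 0.81 and rho = 0.79 (exact permutation p = 0.0159 and 0.0279; adjusted 0.122 and 0.175), and r = 0.59 without the 2 arrays. In all, 7 of 80 pairs at day 0 and 5 of 80 at day 7 had an adjusted p under 0.05 for r, and 3 and 0 of them for rho as well.

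**Figure D5:**
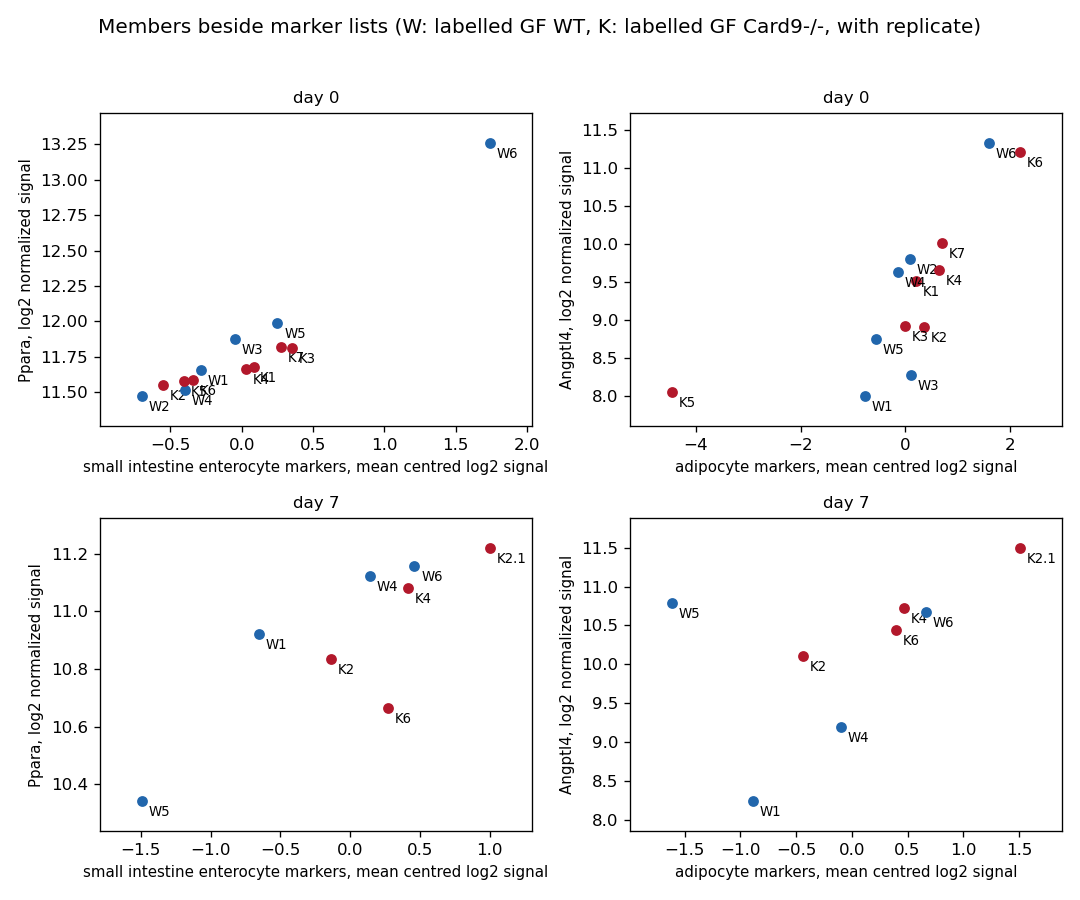
Log2 normalized signal of *Ppara* against the small intestine enterocyte score (left) and of *Angptl4* against the adipocyte score (right) at day 0 (top, 13 arrays) and day 7 (bottom, 8 arrays), each score being the mean centred log2 signal of its markers and each point an array (W, labelled GF WT; K, labelled GF Card9-/-; with replicate). At day 0 *Ppara* rises with the score also among the 12 arrays other than W6, and *Angptl4* is highest in W6 and K6.

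Members were also compared with each other. *Cyp4a10*, whose day 0 probe leads through GF WT replicate 6 alone, is left out here. At day 0 all 21 pairs of the other members had a positive r, from 0.28 to 0.88, but without the 2 farthest arrays of a pair only 16 were positive and r ran from −0.39 to 0.92. Of the 21, 8 had an adjusted p under 0.05, 4 of them also by rho. *Cpt2* and *Acadm* gave r = 0.88 and rho = 0.80 (permutation p = 0.00019 and 0.00152; adjusted 0.00784 and 0.0426), with r = 0.68 without the 2 farthest arrays. *Ppara* and *Cpt1a* gave r = 0.78 and rho = 0.45 (permutation p = 0.00287 and 0.128; adjusted 0.0258 and 0.378), which fell to r = 0.11 without those arrays, so that this relation rested on them. At day 7, 12 of 21 pairs were positive. *Pdk4* and *Angptl4* gave r = 0.88 and rho = 0.74 (exact permutation p = 0.00414 and 0.0458; adjusted 0.0258 and 0.214), where the lowest array, GF WT replicate 1, was not well above background for *Pdk4*. Without the 2 farthest arrays, that one included, r was 0.97.

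The genes most like each member were searched among 15491 genes well above background on all day 0 arrays and 13002 at day 7, as a description. For day 0, r over all arrays is followed by r without the 2 farthest arrays. The genes were *Ugt1a6b* (0.98, 0.77) and *Bche* (0.98, 0.67) for *Ppara*, and *Pdcd6* (0.94, 0.88) and *Nudt16* (0.94, 0.64) for *Cpt1a*. For *Cpt2* they were *1110008P14Rik* (0.97, 0.93) and *Nudt17* (0.97, 0.94), and for *Acadm* *Kiss1* (0.97, 0.86) and *Specc1l* (0.97, 0.88). For *Pdk4* they were *Hoxb4* (0.92, 0.35) and *Tmsb4x* (0.92, 0.45). For *Angptl4* they were the lipid droplet gene *Cidec* (0.89, 0.71) and *Cox8b* (0.88, 0.65), and for *Fabp1* *Gm4633* (0.93, 0.90) and *C1qtnf4* (0.92, 0.87). At day 7 the closest were *Aasdhppt* (0.98) for *Ppara*, *Pex11a* (0.99), a peroxisome division gene, for *Cpt2*, *Rcl1* (0.97) for *Cpt1a*, *Gm5445* (0.98) for *Acadm*, *Txnl1* (0.94, but 0.29 without the 2 farthest arrays) for *Pdk4*, *Cd36* (0.94) for *Angptl4* and *Btnl2* (0.99) for *Fabp1*. The day 0 arrays number 13 and the day 7 arrays 8, and all points of a day share the 2 labels and the design.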

How the data were processed

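Total colon RNA was labelled with Cy3 and hybridised to 1-colour Agilent 8 × 60K mouse arrays, 13 at day 0 and 8 at day 7. The deposited scanner files hold, per the file headers, background-subtracted and detrended intensity for each spot (Agilent Feature Extraction 10.7.3.1, from the submitters' processing notes) with a background p-value for each spot. A deposited table of the authors' normalized log2 values was used only as an alternative. Here log2 intensity was quantile normalized over the arrays of a day, control and outlier-marked spots were dropped and spots of a probe averaged. Tested probes were those with a background p-value under 0.05 on 60% or more of the arrays of 1 label, a rule that spots dimmer than background can also pass, with at least 2 values per label. The authors' rule and limma were followed (R 4.3.3, limma 3.58.1, lmFit and eBayes, Benjamini-Hochberg threshold 0.05 over all tested probes), without covariates, and the fit was tested on simulated data. Single members were also tested by two-sided exact permutation over arrays, and correlations by permutation (100000 resamples at day 0, exact at day 7) with adjustment over 160 pairs of members with marker lists and 56 pairs of members. A marker score is the mean over a list's tested genes of log2 signal centred on the day's mean. The precision is limited by the number of arrays. Probe positions are those of the files (NCBI37); promoters are from RefSeq (GRCm38.p6), and the annotation of exons at the probes was not used here.

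Named genes were the 8 members, *Card9*, every called gene of a pathway list or otherwise the 2 with the largest difference each day, the 2 genes most like each member, markers that bear on a member, and members standing apart in an array; some genes that this rule names are not reported here. The members, lists and tests were chosen with earlier results of these data known. Alternatives were another scaling, background correction, the authors' table, other filters, a floor for dim values, slide, scan session or replicate number as a block, another choice of probe, and leaving out each array. Leaving out the slide of GF WT day 0 replicate 6, or the 3 arrays high in pancreatic genes, was chosen after seeing the data.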

Additional observations from a re-analysis of the deposited data

Results flagged for a closer look

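In 6 of 32 groups of arrays (64 ends tested) the highest or lowest array of a member was separated from the rest by a wide gap. The gap took up an unusual share of the group's range, where chance gives about 1 in 20 groups. The members share the same arrays, so these flags are not independent. Of the 6, 3 lay in GF WT replicate 6 at day 0. It was the highest array of its label for *Ppara* (gap of 0.711 of the range), *Pdk4* (0.652) and *Cyp4a10* (0.768). The *Cyp4a10* gap followed from the choice of a probe that leads only through this array, and the probes of this gene disagree. *Pdk4* was lowest in GF Card9-/- replicate 5 at day 0 (0.723), the array with the lowest adipocyte score, and in GF WT replicate 1 at day 7 (0.947), where it was not well above background. *Cpt2* was highest in GF Card9-/- replicate 2.1 at day 7 (0.851).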

How the results depend on the processing

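No member was called on either day under any alternative run, and all signs below are of differences with no call. The number of probes called at day 0 was 12, against 27 with normexp background correction, 22 from the authors' table, 22 with only probes well above background, 7 with the replicate block, 2769 without adjustment of p, and 8 to 16 when each array was left out. At day 7 it was 0, against 1511 without adjustment and 0 to 1 when each array was left out (1 without GF WT replicate 1). Whether equal replicate numbers pair animals is not given in the sources used here and was not tested. Correlations of same-numbered arrays were −0.022 to 0.37 at day 0, and 0.029 and 0.11 at day 7. At day 7 only replicate numbers 4 and 6, and only slides 4 and 6, held both labels. Fits with either as a block rest on those arrays alone. With the replicate block the median member difference at day 7 was −0.014, and *Ppara* (−0.27), *Cpt1a* (−0.0047), *Cpt2* (−0.070) and *Pdk4* (−0.024) changed sign. With the slide as a block *Ppara* was −0.11 at day 7. Day 0 differences that changed sign were *Cpt2* 0.0023 and *Acadm* 0.016 with 75th percentile scaling, *Cpt2* 0.00060 averaged over probes, and *Ppara* 0.0030, *Cpt1a* 0.021, *Cpt2* 0.038, *Pdk4* 0.37 and *Acadm* 0.066 without the slide of GF WT replicate 6. At day 7, *Cyp4a10* was −0.42 with a floor and −0.13 averaged over probes, and *Cpt1a* −0.0027 without the arrays high in pancreatic genes. The cause was not tested. With each array left out in turn, the day 0 median ran from −0.12 to 0.070, *Ppara* from −0.39 to −0.032, *Cpt1a* from −0.14 to −0.0030, *Cpt2* from −0.055 to 0.070, *Pdk4* from −0.41 to 0.070, *Angptl4* from −0.12 to 0.58, *Acadm* from −0.048 to 0.056 and *Cyp4a10* from −1.32 to 0.11. The day 7 median ran from 0.19 to 0.75, *Ppara* from −0.12 to 0.16 and *Cpt1a* from −0.013 to 0.11. Of the other alternatives, 95 of 103 values at day 0 and 79 of 87 at day 7 kept their sign and side of the threshold, as did 14 of 14 differences between the days. *Cyp4a10*, and *Pdk4* and *Fabp1* in single arrays, are limited by signal near background.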
